A study of Canis lupus familiaris with 4 samples.

Results

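The nuclear-encoded subunits of the oxidative phosphorylation machinery were examined in 4 canine glioblastoma cell lines, each hybridised to 1 Affymetrix Canine Genome 2.0 array. Subunits were taken by gene symbol: the NDUFA, NDUFB, NDUFC, NDUFS and NDUFV genes, SDHA to SDHD, the UQCR genes and CYC1, the COX4 to COX8 genes and the ATP5 genes. The rule found 62 of the 15115 genes that the array annotation names by a single symbol. Where a gene had several probe sets, the one with the brightest mean signal over the 4 arrays stood for it.

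The lines descend from a single parental canine glioblastoma line, J3T, and all were grown in serum-containing medium. The study describes J3T-1 as high and J3T-2 as low in annexin A2 (ANXA2). It describes J3T-1shA as J3T-1 with ANXA2 knocked down and J3T-2A as J3T-2 overexpressing ANXA2. The sample labels give the names of the lines only. ANXA2 is a calcium-dependent phospholipid-binding protein. The labels name neither an empty-vector or control-shRNA line nor a repeat culture, so a difference between lines, between cultures and between arrays cannot be told apart, and no p-value can be given for any gene.

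Oxidative phosphorylation takes place in the inner mitochondrial membrane. Complexes I and II pass electrons from NADH and succinate to ubiquinone, complex III passes them to cytochrome c and complex IV to oxygen, while complexes I, III and IV pump protons. Complex V, the ATP synthase, uses the returning protons to make ATP. All complexes but complex II mix nuclear-encoded subunits with subunits encoded by mitochondrial DNA. Glioma cells are known for a high glycolytic rate beside a working respiratory chain.

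The deposited values are MAS5 signals, a linear measure of the brightness of a probe set. Ratios were taken of J3T-1shA over J3T-1 (called the knockdown pair here), of J3T-2A over J3T-2 (the overexpression pair) and of J3T-1 over J3T-2 (the unmodified pair). A gene was counted as measured in a comparison when its signal reached 250 on the brighter of the 2 arrays. Differences were counted past 25%, meaning that the brighter array exceeded the dimmer by more than 25%, and past 2-fold. Signals of different probe sets are not on a common scale, so each gene is compared only with itself across arrays. The 4 arrays had nearly equal trimmed mean signals, between 495.77 and 496.02, and between 35.2% and 35.9% of probe sets reached 250. Of 3 ANXA2 probe sets, 2 were bright on all arrays and the other was under 250. One gave 30092.9 on the J3T-1shA array, 28656 on J3T-1, 28774.6 on J3T-2A and 30102.5 on J3T-2. The other gave 25725.4, 24127.5, 35650.8 and 30310.9 on the same arrays. Their log2 ratios were 0.07 and 0.09 in the knockdown pair and -0.07 and -0.33 in the unmodified pair, against the described direction. In the overexpression pair they were -0.07 and 0.23, where 0.23 alone has the described direction. The signals thus do not follow the description of the lines throughout, so every direction below is between the arrays labelled as named. Of 7 glioma or astrocyte markers, VIM, SLC1A3 and SOX2 reached 250 on all 4 arrays and NES on J3T-1shA only, whereas the defining astrocyte markers GFAP, S100B and AQP4 stayed at or under 33.6.

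Of the 62 subunits, 60 were measured on at least 1 array: all 32 of complex I, all 4 of complex II, all 8 of complex III, 6 of 8 of complex IV and all 10 of complex V. The measured subunits gave signals between 605.2 and 29040.5. Both unmeasured genes encode tissue-restricted isoforms of complex IV. COX4I2, the isoform of subunit 4 best known from lung, gave 18.6 on J3T-1shA, 54.2 on J3T-1, 39.1 on J3T-2A and 10.4 on J3T-2. COX6A2, the heart and muscle isoform of subunit 6a, gave 129.5, 181.6, 124.2 and 120.9 on the same arrays. No fold change is given for either.

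The spread of each subunit across the 4 lines was described without a matching value over all measured genes. The ratio of the highest to the lowest array had a median of 1.28 over the 60 genes, and it ran from 1.03 for NDUFA7, an accessory subunit of complex I, to 2.30 for SDHC, a membrane anchor of complex II. This ratio exceeded 1 by over 25% for 32 genes, 1.5 for 4 genes (SDHC, NDUFA9, NDUFS3 and NDUFV3) and 2 for SDHC alone. The subunits were bright, with a median signal on J3T-1 of 5635.3 beside 860.4 over all measured genes. The SD of their log2 ratios was 0.25, 0.21 and 0.29 in the knockdown, overexpression and unmodified pairs. For cytosolic ribosomal protein genes it was 0.28, 0.11 and 0.18. Whether brightness bears on these spreads was not tested.

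**Figure D1:**
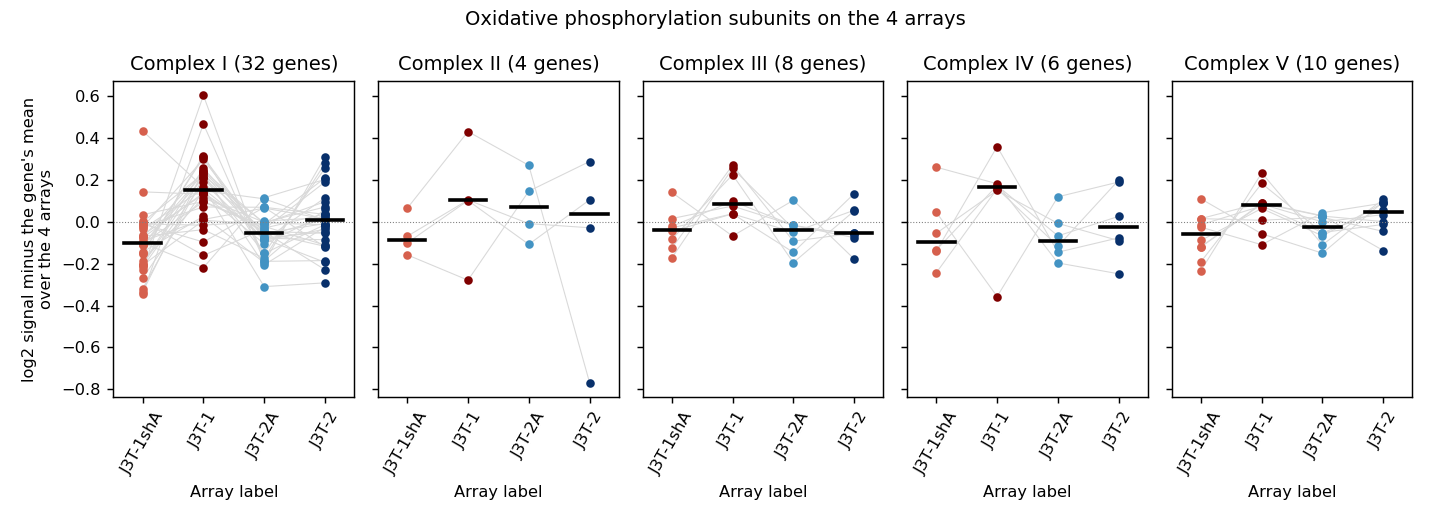
Log2 signal of each measured subunit on each array minus the mean of that subunit over the 4 arrays, by complex; each point is 1 gene on 1 array. The medians over all 60 subunits are -0.09 on J3T-1shA, 0.13 on J3T-1, -0.05 on J3T-2A and 0.01 on J3T-2.

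The array that stood highest was most often J3T-1. Of the 60 measured subunits, 5 had their highest signal on J3T-1shA, 37 on J3T-1, 3 on J3T-2A and 15 on J3T-2. Among all 7241 genes measured on any array, 32.3% were highest on J3T-1, against 61.7% of the subunits. The subunits highest on J3T-1 were 21 of 32 in complex I, 2 of 4 in complex II, 5 of 8 in complex III, 3 of 6 in complex IV and 6 of 10 in complex V. The lowest signal fell on J3T-1shA for 27 subunits, on J3T-1 for 7, on J3T-2A for 13 and on J3T-2 for 13. J3T-1shA was the lowest array for 45% of the subunits and for 28.1% of all measured genes. Against the mean of each gene over the 4 arrays, the median log2 difference of the subunits was -0.09 on J3T-1shA, 0.13 on J3T-1, -0.05 on J3T-2A and 0.01 on J3T-2, as the plot of centred signals by complex shows.

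In the knockdown pair, most subunits were lower on the J3T-1shA array than on J3T-1. The median log2 ratio of J3T-1shA over J3T-1 was -0.20 (SD 0.25 over 60 genes), beside -0.03 (SD 0.70) over 6944 measured genes. The ratio was below 1 for 47 of 60 subunits (78.3%), against 52.9% of all measured genes. It was also below 1 for 37 of 51 cytosolic ribosomal protein genes, 16 of 21 mitochondrial import genes and 14 of 19 glycolysis genes. Mitochondrial ribosomal proteins had 43 of 72 below 1 and proteasome subunits 16 of 32. Past 25%, 19 subunits (31.7%) were lower and 1 (1.67%) was higher on J3T-1shA, where the shares of all measured genes were 23.6% lower and 22.9% higher. No subunit was past 2-fold, against 3.8% of all measured genes past 2-fold lower and 4.26% past 2-fold higher.

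In the overexpression pair the subunits differed less. The median log2 ratio of J3T-2A over J3T-2 was -0.05 (SD 0.21 over 60 genes), beside -0.0034 (SD 0.46) over 6860 genes, and 56 of 60 subunits lay within 25%. The ratio was below 1 for 38 subunits (63.3%), against 50.6% of all measured genes. Past 25%, 1 subunit (1.67%) was higher and 3 (5%) were lower, against 13.8% and 17.5% of all measured genes. SDHC alone passed 2-fold, on the higher side, and 1.69% of all measured genes were past 2-fold higher and 2.1% past 2-fold lower.

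Between the unmodified lines, the subunits were more often higher on J3T-1 than on J3T-2. The median log2 ratio was 0.14 (SD 0.29 over 60 genes), beside 0.03 (SD 0.67) over 6967 genes. The ratio was above 1 for 42 subunits (70%), against 52.5% of all measured genes. Past 25%, 12 subunits (20%) were higher on J3T-1, close to the 23.6% of all measured genes, and 4 (6.67%) were lower, against 22.7%. SDHC alone was past 2-fold higher and no subunit past 2-fold lower, against 2.94% and 4.05% of all measured genes. This comparison shares its J3T-1 array with the knockdown pair and its J3T-2 array with the overexpression pair, so it is not independent of either. In the other pairings, the subunit medians were 0.18 for J3T-1 over J3T-2A (50 of 60 above 1), -0.04 for J3T-1shA over J3T-2A (40 below 1) and -0.10 for J3T-1shA over J3T-2 (43 below 1).

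**Figure D2:**
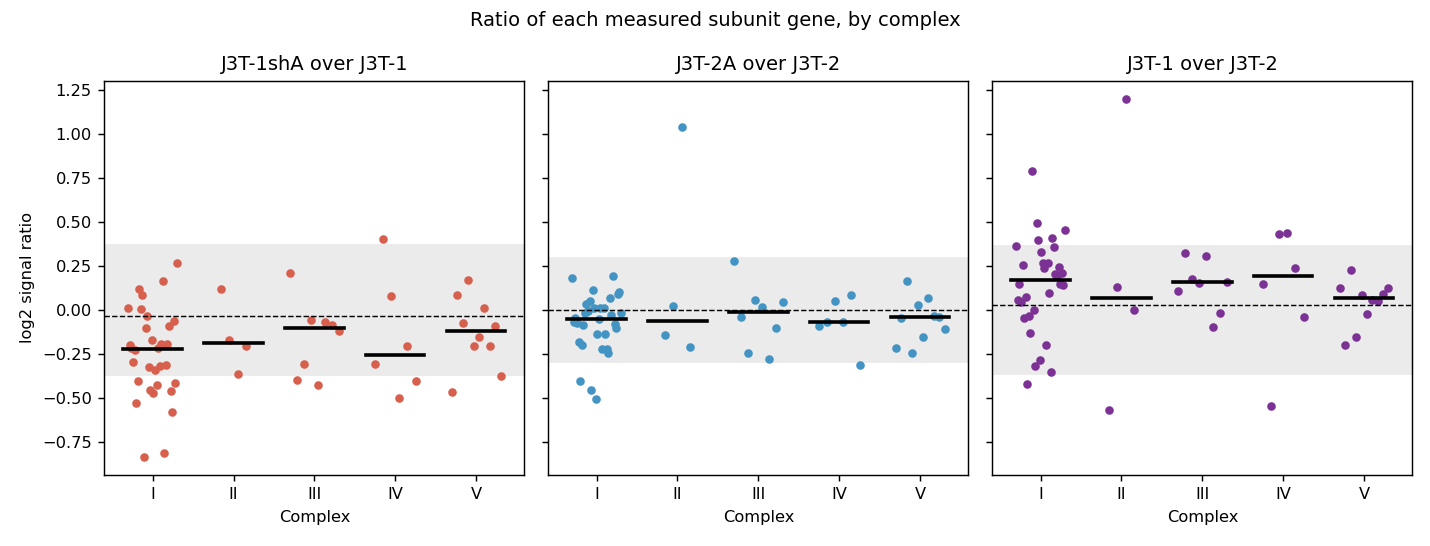
Log2 ratio of each measured subunit in the 3 comparisons, by complex (1 point per gene). In the knockdown pair most points lie below 0 (47 of 60), in the overexpression pair they gather near 0 apart from SDHC at 1.04, and in the unmodified pair 42 of 60 lie above 0.

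With no replicate, the nearest available error was the disagreement between probe sets of the same gene on the same arrays. Over all measured genes with a second bright probe set, the SD of the difference in log2 ratio between the 2 probe sets was 0.37 in the knockdown pair (3760 genes), 0.29 in the overexpression pair (3716 genes) and 0.37 in the unmodified pair (3759 genes). Over the 34 subunits with such a pair it was 0.21, 0.13 and 0.17 in the same order. A ratio beyond the SD of all genes was seen for 16 subunits lower and 1 higher in the knockdown pair, for 4 lower and 1 higher in the overexpression pair, and for 3 lower and 8 higher in the unmodified pair. The matching shares of all measured genes were 20.7% lower and 20.1% higher in the knockdown pair, 19% lower and 15.4% higher in the overexpression pair, and 20.5% lower and 20% higher in the unmodified pair. This spread covers disagreement between probe sets only, and says nothing of the spread between cultures.

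Complex I, the NADH dehydrogenase, held 32 of the 60 measured subunits and 12 of the 19 over 25% lower on J3T-1shA than on J3T-1. Complexes II to V had 1 of 4, 2 of 8, 2 of 6 and 2 of 10 genes past 25% lower there. The share of all measured genes was 23.6%. The median log2 ratio of complex I was -0.22 (26 of 32 below 1) in that pair, -0.05 (21 below 1) in the overexpression pair and 0.17 (23 above 1) in the unmodified pair. The 6 core subunits on the array, which carry the flavin and iron-sulphur clusters or form the ubiquinone-reducing module, had a median of -0.44 in the knockdown pair, and 4 of them were over 25% lower. The 26 accessory subunits had a median of -0.22, with 8 over 25% lower. The corresponding medians were -0.09 for core and -0.04 for accessory subunits in the overexpression pair, and 0.18 and 0.17 in the unmodified pair.

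Among the core subunits, NDUFS3, which lies in the ubiquinone-reducing module, gave 3298 on J3T-1shA, 5790.8 on J3T-1, 3680.6 on J3T-2A and 4370.3 on J3T-2. J3T-1 stood above the other 3 arrays, with a 1.76-fold lower signal on J3T-1shA (log2 -0.81) and log2 ratios of -0.25 in the overexpression pair and 0.41 in the unmodified pair. A second NDUFS3 probe set gave 2588.5 on J3T-1shA, 3782.6 on J3T-1, 3007.2 on J3T-2A and 2973.1 on J3T-2, again highest on J3T-1 and lowest on J3T-1shA. NDUFS8, which holds iron-sulphur clusters on the way to ubiquinone, gave 1974.6, 2950.5, 2476.9 and 2662.6 on J3T-1shA, J3T-1, J3T-2A and J3T-2. NDUFS7, which carries the last cluster before ubiquinone, gave 3431.8 on J3T-1shA and 4719 on J3T-1 (log2 -0.46), with 3765.9 on J3T-2A and 3988.6 on J3T-2. NDUFV2, an iron-sulphur subunit of the NADH-oxidising module, gave 3904.6 on J3T-1shA, 5213.2 on J3T-1, 5075.7 on J3T-2A and 4730 on J3T-2. In each of these 4 genes J3T-1 was highest and J3T-1shA lowest.

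The other 2 core subunits did not share that order by the same size. NDUFV1, which binds NADH and the flavin, gave 3099.8 on J3T-1shA, 3239.4 on J3T-1, 2982.5 on J3T-2A and 2802.6 on J3T-2, all within 25%. NDUFS1, the largest iron-sulphur subunit, gave 2634.2 on J3T-1shA and 2352.1 on J3T-1, with 2566.7 on J3T-2A and 2999.9 on J3T-2. By that probe set it was lowest on J3T-1, with a log2 ratio of -0.35 in the unmodified pair, but the other 3 NDUFS1 probe sets gave -0.07, -0.01 and 0.05 there.

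Of the accessory subunits, NDUFA9, which sits near the junction of the matrix and membrane arms, set J3T-1 apart most clearly. Its signal was 3410.5 on J3T-1shA, 6089.7 on J3T-1, 3513.8 on J3T-2A and 3522.8 on J3T-2. The 3 other arrays lay close together, and J3T-1 was above each of them: the signal was 1.79-fold lower on J3T-1shA (log2 -0.84) and the log2 ratio in the unmodified pair was 0.79, while the ratio in the overexpression pair was 0.997. The second NDUFA9 probe set gave 3250.2, 6015.2, 3530.1 and 3159.1 on J3T-1shA, J3T-1, J3T-2A and J3T-2, with the same single high array.

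NDUFV3, an accessory subunit of the NADH-oxidising module, gave 1370.3 on J3T-1shA, 1137.1 on J3T-1, 818.1 on J3T-2A and 828.4 on J3T-2. Both J3T-1-derived arrays were above both J3T-2-derived arrays, with a log2 ratio of 0.46 in the unmodified pair and 0.27 in the knockdown pair. Its second probe set spanned only 987.1 to 1098.3 and gave -0.15 in the knockdown pair, the opposite sign. NDUFB5, in the membrane arm, gave 3891.7, 4379.2, 3757.1 and 5334.7 on J3T-1shA, J3T-1, J3T-2A and J3T-2. It had the most negative ratio of complex I in the overexpression pair, log2 -0.51, and -0.45 by its second probe set. NDUFB11, another membrane-arm subunit with 1 probe set, gave 2281.8, 2333.3, 2121.7 and 2906 on the same arrays, so that it too was highest on J3T-2. NDUFS6, a zinc-binding accessory subunit, had the most positive ratio of complex I in the overexpression pair, at 0.19, within 25%.

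NDUFA3, a small membrane-arm subunit, was lower in both engineered lines by its brightest probe set. The signals were 2187.8 on J3T-1shA and 3163.4 on J3T-1 (log2 -0.53), and 2463.1 on J3T-2A and 3260.8 on J3T-2 (log2 -0.40). Its second probe set gave 1909.8 on J3T-1shA, 1923.1 on J3T-1, 1800.5 on J3T-2A and 1821.4 on J3T-2, with no such difference. NDUFA6, whose single bright probe set gave 4644.9, 4279.7, 5395.2 and 5732.8 on J3T-1shA, J3T-1, J3T-2A and J3T-2, had the most negative log2 ratio of complex I in the unmodified pair, at -0.42. NDUFB3 ran the other way in that comparison, with 5479.8 on J3T-1 and 3897.8 on J3T-2 (log2 0.49), beside 4381 on J3T-1shA and 4212.2 on J3T-2A. Among the other accessory subunits, log2 ratios in the knockdown pair were -0.47 for NDUFB6, -0.46 for NDUFB4, -0.43 for NDUFB8 and -0.41 for NDUFA5. NDUFA7 was the flattest gene, between 3708.4 and 3804.9.

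Complex II, succinate dehydrogenase, is also an enzyme of the citric acid cycle and is wholly nuclear-encoded. Its 4 subunits differed in which array was high or low. SDHC, which with SDHD anchors the enzyme in the membrane and binds ubiquinone, gave 3960 on J3T-1shA, 5107.2 on J3T-1, 4566.5 on J3T-2A and 2223.4 on J3T-2. The J3T-2 array stood alone at the low end. SDHC was 2.05-fold higher on J3T-2A than on J3T-2 (log2 1.04), 2.30-fold higher on J3T-1 than on J3T-2 (log2 1.20) and 1.29-fold lower on J3T-1shA than on J3T-1 (log2 -0.37). Its second probe set gave 3667.5, 4241.1, 4310.5 and 2106.2 on J3T-1shA, J3T-1, J3T-2A and J3T-2. The third gave 3234.8, 3665.9, 3565.9 and 1676.4 on the same arrays. All 3 probe sets thus put J3T-2 lowest, with log2 ratios of 1.03 to 1.09 in the overexpression pair and 1.01 to 1.20 in the unmodified pair. The second and the third gave -0.21 and -0.18 in the knockdown pair, within 25%. Since both comparisons use the J3T-2 array, these are not separate observations of it.

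SDHA, the flavoprotein that oxidises succinate, had a different order of arrays. It gave 4713.2 on J3T-1shA, 4333.6 on J3T-1, 5820.2 on J3T-2A and 6421.1 on J3T-2, and both J3T-1-derived arrays lay below both J3T-2-derived arrays. The signal was 1.48-fold lower on J3T-1 than on J3T-2 (log2 -0.57), the most negative ratio of any subunit in that comparison, whereas the log2 ratio was 0.12 in the knockdown pair and -0.14 in the overexpression pair. SDHB, the iron-sulphur subunit, gave 3559.3, 4014.9, 3712 and 3661.8 on J3T-1shA, J3T-1, J3T-2A and J3T-2. SDHD, the other membrane anchor, gave 1254.4 on J3T-1shA, 1443.7 on J3T-1, 1248.5 on J3T-2A and 1446.8 on J3T-2. SDHB and SDHD stayed within 25% in the 3 comparisons, so the anchor partner of SDHC did not show its low J3T-2 value.

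**Figure D3:**
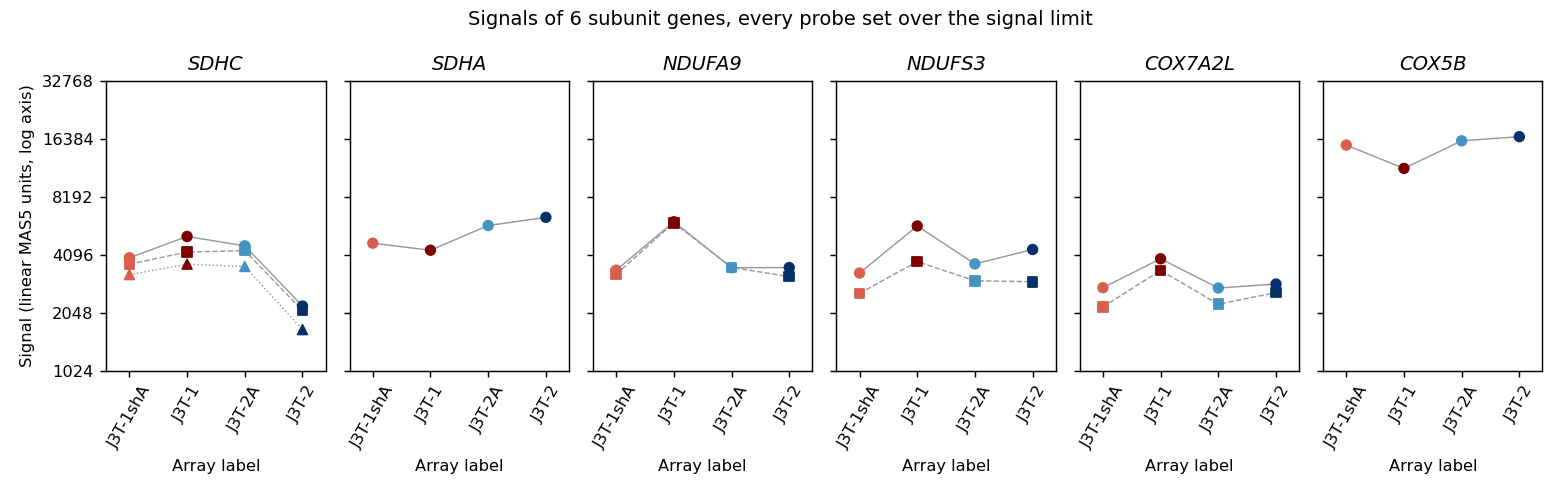
Signal (log axis) of every probe set that reached 250 for SDHC, SDHA, NDUFA9, NDUFS3, COX7A2L and COX5B on the 4 arrays, with 1 line per probe set. SDHC is lowest on J3T-2 in all 3 of its probe sets (2223.4, 2106.2 and 1676.4), NDUFA9 stands high on J3T-1 alone (6089.7 and 6015.2), and COX5B stands low on J3T-1 alone (11526.4).

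Complex III, the cytochrome bc1 complex, had medians of -0.10 in the knockdown pair (7 of 8 below 1), -0.01 in the overexpression pair and 0.16 in the unmodified pair. CYC1, cytochrome c1, was the only one of its genes with a higher signal on J3T-1shA than on J3T-1. It gave 4106.1 on J3T-1shA, 3552.8 on J3T-1, 3999.8 on J3T-2A and 3293.3 on J3T-2, so that each engineered line was above its parent, by log2 0.21 and 0.28, within 25%. UQCRC2, a core protein facing the matrix, gave 2832.4, 3814.1, 3121.9 and 3082.3 on J3T-1shA, J3T-1, J3T-2A and J3T-2 (log2 -0.43 in the knockdown pair), and its second probe set gave -0.48. UQCR10, a small structural subunit, gave 7192.7, 9468.5, 7361.3 and 7560.5 on the same arrays and had the most positive log2 ratio of the complex in the unmodified pair, at 0.32. J3T-1 was the single high array in both of these genes.

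UQCRFS1, the Rieske iron-sulphur protein, gave 10174.7 on J3T-1shA, 10660.5 on J3T-1, 9381.7 on J3T-2A and 11396.2 on J3T-2. Its brightest probe set had the most negative ratio of complex III in the overexpression pair, log2 -0.28, but the second gave 0.01, and in the unmodified pair the same probe sets gave -0.10 and 0.29. Its direction in these pairs therefore depended on the probe set, and in the knockdown pair the values were -0.07 and -0.39. UQCRC1, the partner core protein of UQCRC2, spanned only 9932.9 to 11030.9, and UQCRH, the hinge protein that docks cytochrome c, spanned 27003.3 to 29040.5 by its brightest probe set. The other bright UQCRH probe sets were past 25% lower on J3T-1shA than on J3T-1, with 5897.9 on J3T-1shA and 8256.6 on J3T-1 (log2 -0.49) by one and 5517.1 on J3T-1shA and 8142.6 on J3T-1 (log2 -0.56) by the other.

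Complex IV, cytochrome c oxidase, had medians over 6 measured genes of -0.26 in the knockdown pair (4 below 1), -0.07 in the overexpression pair and 0.19 in the unmodified pair. These genes were COX4I1, COX5B, COX7A1, COX7A2L, COX8A and NDUFA4. Other nuclear-encoded subunits of the complex, COX5A among them, were not in the set, so the medians describe only part of it. COX5B, a zinc-binding subunit on the matrix side, gave 15233.4 on J3T-1shA, 11526.4 on J3T-1, 16038.6 on J3T-2A and 16844.9 on J3T-2. J3T-1 stood alone at the low end, the reverse of most subunits. COX5B was the only subunit over 25% higher on J3T-1shA than on J3T-1 (1.32-fold, log2 0.40), and it was 1.46-fold lower on J3T-1 than on J3T-2 (log2 -0.55). It had 1 probe set, so the value has no second reading.

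COX7A2L, which takes part in joining complexes III and IV into supercomplexes, showed the more common order, with 2768 on J3T-1shA, 3913.1 on J3T-1, 2757.6 on J3T-2A and 2892 on J3T-2. Its log2 ratio was -0.50 in the knockdown pair and 0.44 in the unmodified pair, and its second probe set gave -0.63 and 0.38. COX4I1, the widely expressed form of the regulatory subunit 4, gave 12272.8, 15189.6, 12857 and 13715.9 on J3T-1shA, J3T-1, J3T-2A and J3T-2. COX8A, the ubiquitous form of the smallest subunit, gave 9726.1, 11211.5, 10050.2 and 9492.7 on the same arrays. COX7A1, the heart and muscle isoform of subunit 7a, gave 861.7 on J3T-1shA, 815.7 on J3T-1, 627.4 on J3T-2A and 605.2 on J3T-2. Both J3T-1-derived arrays were above both J3T-2-derived arrays in COX7A1 (log2 0.43 in the unmodified pair).

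NDUFA4 was first named as a complex I subunit and is now placed with complex IV. It gave 9280.6 on J3T-1shA and 12261.7 on J3T-1 (log2 -0.40), and 10133.3 on J3T-2A and 12614.5 on J3T-2 (log2 -0.32). The engineered lines were thus both below their parents, and its second probe set gave -0.26 and -0.31 in the same order. The unmodified lines were close, with a log2 ratio of -0.04.

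Complex V stayed close between the unmodified lines: no gene passed 25% in the unmodified pair (median 0.07, range -0.20 to 0.23) or in the overexpression pair (median -0.04, range -0.25 to 0.17). In the knockdown pair the median was -0.12, and 2 of 10 genes were over 25% lower. ATP5F1A, the alpha subunit of the catalytic head, was the first, with 15932.4 on J3T-1shA, 22032 on J3T-1, 17364.4 on J3T-2A and 20177.8 on J3T-2 (log2 -0.47 in the knockdown pair, -0.14 by its second probe set). ATP5PO, which joins the head to the peripheral stalk, was the other, with 9011.8, 11682.5, 9919.5 and 10710.1 on the same arrays (log2 -0.37).

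ATP5F1B, the catalytic beta subunit that pairs with the alpha subunit, had another order, with 24004.5 on J3T-1shA, 22648.6 on J3T-1, 25185.6 on J3T-2A and 25998.5 on J3T-2. J3T-1 was lowest, with a log2 ratio of -0.20 in the unmodified pair, and -0.47 by its second probe set. ATP5F1C, the rotating gamma subunit, had the most positive ratios of complex V in the overexpression pair (0.17) and in the unmodified pair (0.23). ATP5F1D, the delta subunit of the central stalk, gave 5117.5, 4557.7, 4273.8 and 5066.6 on J3T-1shA, J3T-1, J3T-2A and J3T-2, all within 25% in each comparison. ATP5IF1, the inhibitor of ATP hydrolysis by the synthase, gave 15810.4, 18239.8, 17490.4 and 17175.3 on those arrays.

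ATP5MC1, ATP5MC2 and ATP5MC3 encode one and the same mature subunit c of the proton-driven ring from separate genes. Their log2 ratios lay between -0.20 and 0.01 in the knockdown pair, between -0.04 and 0.07 in the overexpression pair and between 0.05 and 0.09 in the unmodified pair. ATP5J2 is the array's older symbol for subunit f, and its brightest probe set stayed within 25% in all 3 comparisons. Its second gave 4205.7 on J3T-1shA and 5910.7 on J3T-1 (log2 -0.49), past 25% lower, and stayed within 25% in the other comparisons.

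A second probe set over 250 was on hand for 34 subunits and gave another reading of the same RNA. In the knockdown pair, 26 of the 34 genes were lower by both probe sets, 3 were higher by both and 5 had opposite signs. The median over the 34 was -0.23 by the second and -0.21 by the brightest probe set, and 12 (35.3%) were over 25% lower by the second, against 21.2% of all second probe sets. In the overexpression pair, 16 were lower by both, 10 higher by both and 8 had opposite signs. In the unmodified pair, 20 were higher by both, 6 lower by both and 8 had opposite signs. UQCR11, a small complex III subunit, was the gene with the widest disagreement in that comparison, 0.17 by its brightest and -0.27 by its second probe set. Matching shares of agreeing and opposite signs among all genes with a second bright probe set were not counted. The sign counts therefore do not set the subunits apart.

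**Figure D4:**
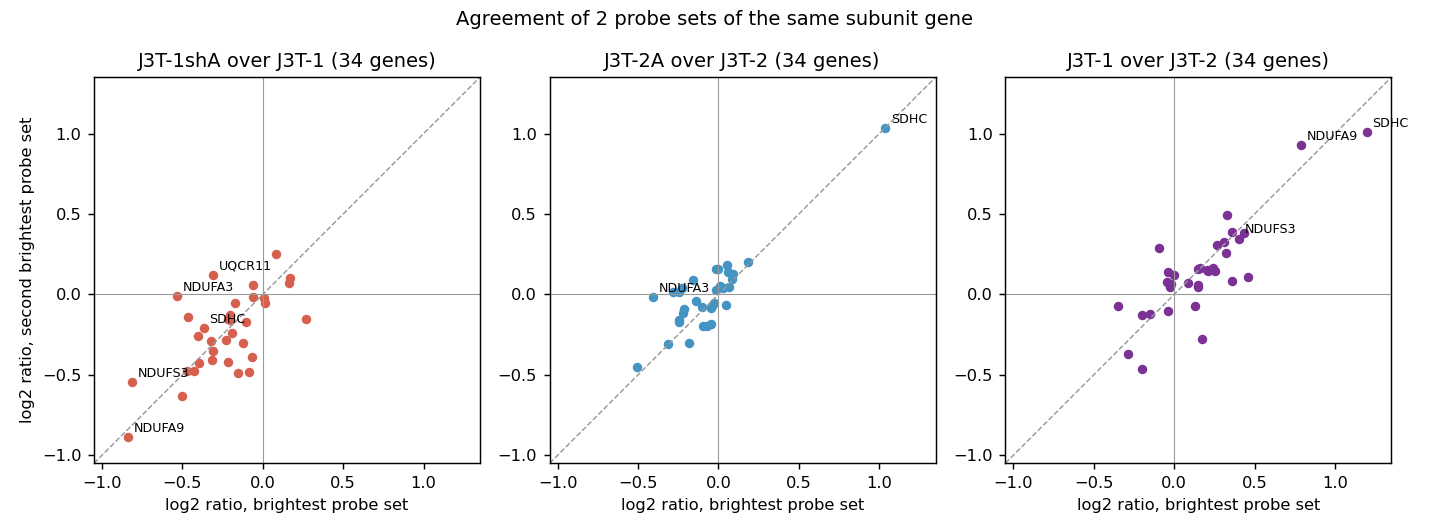
Log2 ratio by the second probe set (vertical) against that by the brightest probe set (horizontal) for 34 subunits in the 3 comparisons, with the line of equality. The SD of the difference is 0.21 in the knockdown pair, 0.13 in the overexpression pair and 0.17 in the unmodified pair.

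Genes that build the respiratory chain but are not part of it were compared as a list. Of 39 assembly factors on the array, 36 were measured in each engineered pair. Their median log2 ratio was -0.07 in the knockdown pair, with 5 over 25% higher and 8 lower, and 0.15 in the overexpression pair. In the unmodified pair the median was 0.33 over 35 genes, with 18 over 25% higher and 1 lower, beside 12 and 4 of the 60 subunits. The shares of all measured genes were 22.9% higher and 23.6% lower in the knockdown pair, and 23.6% and 22.7% in the unmodified pair. No assembly factor passed 2-fold in the 3 comparisons. Mitochondrial import genes, which bring the nuclear-encoded subunits into the organelle, had medians of -0.15 in the knockdown pair, -0.01 in the overexpression pair and 0.26 in the unmodified pair (21 measured). TIMM8B, a small import chaperone, went against its list in the knockdown pair, with 2090.3 on J3T-1shA, 857.7 on J3T-1, 1228.5 on J3T-2A and 1240.4 on J3T-2.

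Electron carriers and other entry points to ubiquinone were listed together with ubiquinone synthesis genes (PDSS1, PDSS2 and the COQ genes), NDUFAB1, AIFM1 and NNT. The list had medians of -0.29 in the knockdown pair, 0.02 in the overexpression pair and 0.23 in the unmodified pair. In the knockdown pair 9 of 19 were over 25% lower and 3 higher, against 23.6% and 22.9% of all measured genes. The 9 were ETFA, ETFDH and SQOR, beside PDSS2, COQ2, COQ3, COQ6, COQ7 and NDUFAB1. SQOR, which passes electrons from sulphide to ubiquinone, gave 288.9 on J3T-1shA, 2037.5 on J3T-1, 824.9 on J3T-2A and 2347.4 on J3T-2. It was 7.05-fold lower on J3T-1shA and 2.85-fold lower on J3T-2A than on their parents, far past any subunit of complexes I to V. CYCS, the cytochrome c that links complexes III and IV, gave 14109.3, 17240.6, 13570.3 and 13983.6 on J3T-1shA, J3T-1, J3T-2A and J3T-2, highest on J3T-1.

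The citric acid cycle and pyruvate entry genes had medians of -0.18, -0.03 and 0.13 in the knockdown, overexpression and unmodified pairs. IDH2, the mitochondrial NADP-dependent isocitrate dehydrogenase, gave 9480.1 on J3T-1shA, 6255.1 on J3T-1, 5498.5 on J3T-2A and 3094.6 on J3T-2, so both engineered lines were above their parents. PDK2, a kinase that inhibits pyruvate dehydrogenase, gave 174.7, 175.5, 225.7 and 577.9 on the same arrays and reached 250 on J3T-2 alone. Mitochondrial antioxidant genes had medians of -0.11, -0.27 and -0.15 in the 3 comparisons. SOD2, the manganese superoxide dismutase of the matrix, gave 855.6 on J3T-1shA, 1286.8 on J3T-1, 1792.3 on J3T-2A and 6865.6 on J3T-2, and J3T-2 was the single high array.

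Subunits encoded by mitochondrial DNA had no symbol in the annotation and are not analysed here. The nuclear genes for mitochondrial DNA expression, which copy or transcribe that DNA, handle its transcripts or act in their translation, had medians of 0.13 in the knockdown pair, -0.01 in the overexpression pair and 0.15 in the unmodified pair (17 measured). In the first of these the counts ran against the median, with 1 gene over 25% higher and 7 lower. The shares of all measured genes there were 22.9% higher and 23.6% lower. TFB1M, a methyltransferase of mitochondrial ribosomal RNA, gave 694.7 on J3T-1shA, 1568.4 on J3T-1, 1019 on J3T-2A and 713.8 on J3T-2. POLG2, the accessory subunit of the mitochondrial DNA polymerase, gave 331.2, 272.5, 376.6 and 598.9 on those arrays. Of 16 nuclear regulators of mitochondrial genes, 10 were measured, with medians of -0.27, 0.05 and 0.05 in the 3 comparisons. NRF1, ESRRA, PPARGC1A, PPARGC1B, PPARA and PPARD were under 250 on every array. Of the 10 measured, 7 were lower and 3 higher on J3T-1shA than on J3T-1. The log2 ratios there were -0.43 for GABPA and -0.40 for GABPB1, both with signals near the limit, but 0.82 for TFAM and 0.29 for YY1. MYC gave 394.6 on J3T-1shA, 809.6 on J3T-1, 577.1 on J3T-2A and 465.0 on J3T-2. Of 8 hypoxia-linked respiratory chain genes, 5 were measured, with medians of -0.15, -0.06 and 0.14, while NDUFA4L2, COX4I2 and BNIP3 stayed under 250.

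Other large protein machines gave a scale for these medians. Mitochondrial ribosomal proteins had medians of -0.05 in the knockdown pair (13 of 72 over 25% higher, 18 lower), 0.07 in the overexpression pair and 0.22 in the unmodified pair (24 of 71 higher, 9 lower). The shares of all measured genes were 22.9% higher and 23.6% lower in the knockdown pair, and 23.6% and 22.7% in the unmodified pair. Single members passed 2-fold in the knockdown pair: MRPL14 gave 4492.3 on J3T-1shA and 10189 on J3T-1, and MRPL23 gave 1724.9 on J3T-1shA and 860.3 on J3T-1. Cytosolic ribosomal proteins had medians of -0.14, -0.01 and 0.05 over 51 genes, with RPS10 at 1980.3 on J3T-1shA and 950 on J3T-1. Proteasome subunits had medians of 0.01, 0.05 and -0.01 over 32 genes. In the knockdown pair the respiratory subunits, at -0.20, thus had a lower median than these 3 machines, the closest being the cytosolic ribosome. Whether that difference exceeds the spread between cultures was not tested, as each line has 1 array.

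Glycolysis genes had medians of -0.13, 0.03 and 0.12 in the knockdown, overexpression and unmodified pairs. In the knockdown pair 7 of 19 were over 25% lower and none higher, against 23.6% and 22.9% of all measured genes. TPI1, ENO2, PKM and GAPDH passed 2-fold: TPI1 gave 6648.3 on J3T-1shA and 14213.6 on J3T-1, ENO2 gave 470.8 and 1028, and PKM gave 785.4 and 1860.9. The GAPDH probe set was dim, at 37.2 on J3T-1shA and 355.9 on J3T-1. PKM was also past 2-fold lower on J3T-2A (765.1) than on J3T-2 (1779.9).

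**Figure D5:**
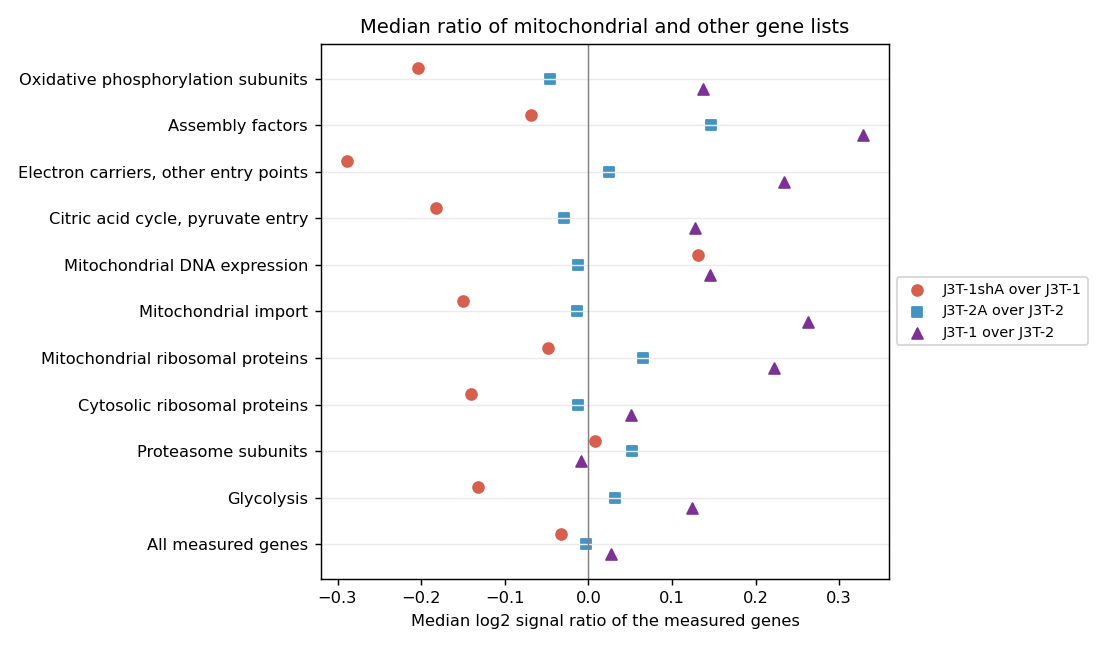
Median log2 ratio of each gene list and of the oxidative phosphorylation subunits in the 3 comparisons. The subunits lie at -0.20 in the knockdown pair, -0.05 in the overexpression pair and 0.14 in the unmodified pair, and assembly factors at -0.07, 0.15 and 0.33.

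Markers of other cells also differed in the knockdown pair. Of 5 fibroblast or pericyte markers, 4 reached 250 on J3T-1shA, 4 on J3T-1, 3 on J3T-2A and 3 on J3T-2, PDGFRB being under 250 on each. DCN gave 1166.5 on J3T-1shA, 387.9 on J3T-1, 794.8 on J3T-2A and 1292 on J3T-2. LUM gave 18644.1, 14940.1, 29213 and 25065.4 on the same arrays. ACTA2, smooth muscle actin, gave 13625 on J3T-1shA, 562.2 on J3T-1, 98.7 on J3T-2A and 24.9 on J3T-2, and COL1A1, a fibrillar collagen chain, gave 16841.9, 2013.8, 11898.9 and 3798.8. Of 3 striated muscle markers, ACTA1 alone reached 250, at 949.7 on J3T-1shA, while MYH7 and DES stayed under it. Of 4 endothelial markers, CDH5, VWF and KDR were at or under 91.6 on all arrays, while PECAM1 gave 1 on J3T-1shA, 37 on J3T-1, 161 on J3T-2A and 773.2 on J3T-2. Of 5 microglial markers, AIF1, CSF1R, CD68 and ITGAM were at or under 107.3 on all arrays, while C1QA, a complement chain, gave 514.8, 661.5, 298 and 317.4 on J3T-1shA, J3T-1, J3T-2A and J3T-2, above 250 on each and 2.08-fold higher on J3T-1 than on J3T-2. SLC1A3, an astrocyte glutamate transporter, gave 5505.5, 2422.1, 3998.8 and 1996.2 on J3T-1shA, J3T-1, J3T-2A and J3T-2. Of the same list, SOX2 gave 1662.5, 936.8, 1175.4 and 1454.3 on those arrays. NES gave 345.9, 150.2, 126.4 and 94.9, and VIM gave 43057.8, 41176.9, 42454.3 and 42738.5. The part of these markers in the subunit values was not tested.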

How the data were processed

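Total RNA of each line was labelled with biotin and hybridised to 1 array. The authors summarised the probes with MAS5 and scaled each array, and the deposited values are linear signal intensities for 42924 probe sets. The stated trimmed mean was 100, whereas the deposited values had trimmed means between 495.77 and 496.02, so the signal limit used here, which is not taken from the authors, was placed at 250 on the deposited scale. Any P value of the methods could not be recomputed from the files. Probe sets were named through the platform annotation: 29254 had 1 symbol and 439 had several and were left out, 5 of which include a subunit symbol. The genome build behind the annotation is not given in the sources used here. Current RefSeq symbols held 74 that match the rule, of which 12 were not analysed here, and 115 of 118 subunit probe sets kept their symbol through the Entrez identifier. Of the brightest probe sets, 36 were of the type shared by several transcripts. The deposited table had 0 columns that could not be assigned to a sample. No sequence was shown.

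The log2 ratio of the deposited intensities was taken gene by gene for genes reaching 250 on the brighter array, without a pseudocount. Counts past 25% and 2-fold, medians and SDs were set beside those of all measured genes. No test was run, since each group had 1 array. Intensity arrays carry no read depth, and their number limits the precision. The subunits and the gene lists were chosen with earlier results of these data known. Named were subunits past 1.5-fold in any comparison, the most positive and most negative of each complex and comparison, the SDH subunits, CYC1, UQCRFS1, UQCRC1, ATP5F1A, ATP5F1B, ATP5IF1, NDUFA4, groups of paralogues, and genes of other lists past 2-fold. Other subunits named, such as the remaining core subunits of complex I, and CYCS, were chosen after their values were seen. Alternatives were a limit of 500 or none, a pseudocount of 80, a floor of 160, quantile normalisation, median centring, the median over probe sets and the second brightest probe set. NDUFA4 counted in complex I was added after seeing the data, as were the alternatives for the count of subunits highest on J3T-1. The scripts were tested on simulated data. Python 3.11.15, numpy 2.4.6, pandas 2.3.3 and matplotlib 3.10.9 were used.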

Additional observations from a re-analysis of the deposited data

Results flagged for a closer look

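NDUFA3 and NDUFA4 were flagged because the arrays labelled J3T-1shA and J3T-2A were both below their parents, each beyond the probe-set spread. In terms of high over low described ANXA2, the 2 pairs thus ran in opposite directions. The share of all measured genes that meet the same rule was not counted, so the flag does not set these genes apart. For NDUFA3 the log2 ratio was -0.53 for J3T-1shA over J3T-1 and -0.40 for J3T-2A over J3T-2, with -0.01 and -0.02 by its second probe set. For NDUFA4 it was -0.40 and -0.32, with -0.26 and -0.31 by its second probe set. The difference between the pairs was not tested, as each line has 1 array. No group had the 4 samples needed to look for an outlying array.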

How the results depend on the processing

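The median log2 ratio of the subunits kept its sign under each alternative and lay between -0.23 and -0.17 in the knockdown pair, between -0.05 and -0.0012 in the overexpression pair and between 0.11 and 0.14 in the unmodified pair. The second probe set, on hand for 34 subunits, gave the -0.0012. It also turned the sign of complex I in the overexpression pair (0.03), of complex V in the unmodified pair (-0.07), of NDUFV3 in the knockdown pair (-0.15), of NDUFS3 (0.02) and UQCRFS1 (0.01) in the overexpression pair and of UQCRFS1 (0.29) and ATP5F1A (-0.07) in the unmodified pair, and complex II, left with SDHC, stood at 1.03 in the overexpression pair. The median over probe sets also turned UQCRFS1 in the unmodified pair (0.10). Other sign changes among the genes named by rule started from ratios within 0.06 of 0 by the brightest probe set. Among these, NDUFA9 went from -0.0037 to 0.16 in the overexpression pair with the second probe set. Subunits outside that rule were not in this check, and some turned by more with the second probe set. UQCR11 went from 0.17 to -0.27 in the unmodified pair and from -0.31 to 0.12 in the knockdown pair. In the overexpression pair NDUFS1 went from -0.225 to 0.04 and ATP5J2 from -0.16 to 0.09. By the second probe set, past 25%, 0 subunits were higher and 12 (35.3%) lower in the knockdown pair. The shares of all second probe sets were 27.4% and 21.2%. In the overexpression pair 1 (2.94%) was higher and 1 (2.94%) lower, against 15.3% and 15.8%. In the unmodified pair 7 (20.6%) were higher, close to the 21.1% of all second probe sets, and 2 (5.88%) lower, against 26.7%. By that probe set 20 of 34 were highest on J3T-1, fewer than with 60 genes since fewer were counted. With no limit on signal, COX4I2 and COX6A2 entered: 2 subunits were past 25% and 2 past 2-fold higher in the overexpression pair, 1 was past 2-fold lower in the knockdown pair and 2 were past 2-fold higher in the unmodified pair. The matching shares of all genes without the limit were not counted. Of the values for the whole set of subunits, 112 held and 11 moved. Of those for complexes and single genes, 777 held and 9 moved. Part of these totals was fixed in advance. No measured subunit had a signal under 605.2, so the higher signal limit and the floor could not change these values. Every single-gene ratio checked held under each alternative but the second probe set, where 48 held and 3 moved. A change of sign could count as held, as for NDUFS3 in the overexpression pair (-0.25 to 0.02). Each line has 1 array, so no replicate could be left out. No paired analysis was possible because no test was run and each group has 1 sample. The promoter motif count was not run, as no promoter sequence was used here.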
